A study of Mus musculus with 2 samples.

Results

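Calca, Nrn1, Rln3 and Penk encode secreted or cell-surface products best known from the nervous system, and their transcripts were followed here in CD4 T cells from the visceral adipose tissue (VAT, the deep abdominal fat) of mice. They are 4 of the 32285 genes in the count matrices, taken by name and chosen by their summed counts in both libraries and the T cell states that held them, so every level below is a description and carries no test. T cells positive for TCRb and CD4 had been sorted from the stromal vascular fraction of pooled C57BL/6 mice, and were profiled by droplet 3′ single-cell RNA sequencing. One library came from wild-type mice (WT) and one from mice without CD27 (CD27_KO, CD27-/- in the protocols). CD27 is a receptor that gives T cells a costimulatory signal when it binds CD70. The protocols name 10 mice without saying whether each pool held that many, and give neither age nor sex. The design text also names crosses with a CD11c-Cd70tg transgene and CD27+/- mice, which are not analysed here. With 1 library per genotype there is no replicate check, and the libraries, not the genotypes, are compared.

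Calca is read out as either calcitonin or calcitonin gene-related peptide (CGRP), depending on which of its last exons is spliced in. CGRP acts on the receptor Calcrl paired with Ramp1. Rln3 encodes relaxin-3, a peptide of the insulin and relaxin family whose main receptor is Rxfp3. Penk encodes proenkephalin, which is cut into enkephalins, the ligands of delta and mu opioid receptors. Nrn1 encodes neuritin, a small protein held on the cell surface by a lipid anchor that promotes neurite growth. It is not a peptide hormone, so the 4 genes are called neuropeptide genes here only as a working name. VAT is known for 2 kinds of tissue-adapted CD4 T cells that carry the IL-33 receptor Il1rl1, regulatory T cells (Tregs, marked by Foxp3) and type 2 helper (Th2) cells.

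All 4 genes lie on the minus strand in mm10 (GENCODE vM21). Calca spans chr7:114631478-114636357, Nrn1 chr13:36725361-36735131, Rln3 chr8:84042929-84045000 and Penk chr4:4133531-4138819. Precursor peptides are released at pairs of basic residues, so the coding stretches that carry such sites are shown, with each pair of codons for lysine or arginine in capitals. Calca has 2 alternative coding ends after a shared start. The first, chr7:114632440-114632599, belongs to transcript Calca-201 and the second, chr7:114633602-114633785, to Calca-202. The Penk stretch, bases 544 to 783 of the coding sequence of Penk-201 (chr4:4133863-4134102), was chosen as the 240 bases with the most such pairs, 7 of the 12 in the whole coding sequence.
Calca-201 coding end: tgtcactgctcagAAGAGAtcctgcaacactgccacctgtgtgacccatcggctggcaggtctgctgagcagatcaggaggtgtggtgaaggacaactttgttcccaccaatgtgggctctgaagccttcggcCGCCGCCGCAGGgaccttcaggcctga
Calca-202 coding end: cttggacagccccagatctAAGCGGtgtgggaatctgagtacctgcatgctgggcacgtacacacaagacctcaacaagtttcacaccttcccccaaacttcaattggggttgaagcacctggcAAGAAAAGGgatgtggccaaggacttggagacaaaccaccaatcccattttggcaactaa
Penk-201 coding stretch: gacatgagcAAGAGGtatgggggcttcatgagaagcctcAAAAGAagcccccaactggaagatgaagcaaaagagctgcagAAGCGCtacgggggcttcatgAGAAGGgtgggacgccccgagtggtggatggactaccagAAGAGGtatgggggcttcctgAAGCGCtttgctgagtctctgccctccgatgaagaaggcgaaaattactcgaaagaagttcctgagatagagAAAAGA

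Counts per gene do not separate the Calca forms, so no value below tells calcitonin from CGRP. The coding sequences of Rln3-201 and Nrn1-201 hold 1 pair each. None of the last 400 bases of any transcript of the 4 genes matched a transcript of another gene over 90 or more bases at 95% identity. Nrn1 overlaps Fars2 and Gm30177, and Penk overlaps A830012C17Rik, all on the opposite strand. The next gene downstream of Rln3 on its own strand, Il27ra, lies 339 bases away, against 56008 or more for the others. Any part of Il27ra in the Rln3 counts was not tested.

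The 250 bases in front of Calca (chr7:114636358-114636607, minus strand) and Rln3 (chr8:84044980-84045229, minus strand) are shown because these genes lay in different T cell clusters. Sequences are from RefSeq on GRCm38.p6, which had an entry for these 2 of the 4 genes. Distances count from the RefSeq start, which for Rln3 lies inside the GENCODE gene, so 21 of its 250 bases fall within the GENCODE transcript. Capitals mark matches on either strand to GGAAA, to the GATA factor core AGATAA (which reads TTATCT on the other strand), to TGACG and to the TATA box TATAAA.
Calca upstream: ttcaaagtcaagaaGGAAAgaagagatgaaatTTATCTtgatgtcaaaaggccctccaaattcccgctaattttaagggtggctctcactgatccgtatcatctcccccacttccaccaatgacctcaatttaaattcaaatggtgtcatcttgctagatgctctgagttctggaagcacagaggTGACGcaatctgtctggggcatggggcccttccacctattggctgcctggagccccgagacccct
Rln3 upstream: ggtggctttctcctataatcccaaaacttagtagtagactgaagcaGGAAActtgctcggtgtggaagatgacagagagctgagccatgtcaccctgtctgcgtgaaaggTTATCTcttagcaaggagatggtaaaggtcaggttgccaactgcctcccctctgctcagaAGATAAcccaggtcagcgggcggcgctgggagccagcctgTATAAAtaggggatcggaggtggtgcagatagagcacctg

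AGATAA occurred at 140 and 80 bases before the Rln3 start and at 218 before the Calca start, and 9.99% of 32851 upstream sequences of the same length hold it. TATAAA began 40 bases before the Rln3 start (12.4% of all hold it), and TGACG 65 bases before the Calca start (17.8%). GGAAA was found once in each, as in 55.6% of all, while TGACGTCA and TGANTCA were found in neither (1.55% and 6.75% of all). TGACG is also part of TGACGTCA. Letter matches of this kind are common and do not show that a factor binds.

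In WT, 6398 barcodes carried 16628623 unique molecular identifiers (UMIs, each standing for 1 captured transcript), and in CD27_KO 6893 barcodes carried 20191704. Levels are given in CPM, the UMIs of a gene per 1000000 UMIs of the summed cells. After filtering and removal of clusters that were not T cells, 6202 WT and 6788 CD27_KO T cells were left, with 15824202 and 19784355 UMIs and medians of 1930.5 and 2200 UMIs per cell. Cd27 itself had 2072 UMIs in WT and 15 in CD27_KO T cells, in the direction of the labels. The 6 T cell markers summed to 4610 and 4452 CPM, the pair of CD8 markers to 7.46 and 8.59. Joint clustering of both libraries, from which the 4 genes were left out, gave 16 T cell clusters, which are named after their markers as "like" a cell type, with a leading gene in brackets. The main ones were Th2-like cluster 9, which held 293 WT and 1121 CD27_KO cells, Treg-like cluster 4 (Cxcl2, Areg, Il10) with 960 and 139, and Treg-like cluster 1 (Foxp3, Ikzf2) with 435 and 333. Cluster 10 stayed unnamed because it carried both Th2 and innate type 2 markers. It held 92 WT and 432 CD27_KO cells of high depth, with medians of 6725 and 6130 UMIs. Both libraries shared 12 barcodes. Those cells held 11 UMIs of the 4 genes in WT and 1 in CD27_KO, and leaving them out kept the 4 ratios over all T cells within their counting intervals.

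Transcripts of at least 1 of the 4 genes were seen in 554 of the WT T cells (8.93%) and in 302 of the CD27_KO T cells (4.45%). In WT the cells were mostly Treg-like and held Rln3, Nrn1 or Penk. In CD27_KO they were mostly Th2-like or of cluster 10 and held Calca. Cells with 2 or more of the genes numbered 70 in WT and 7 in CD27_KO.

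Calca had 270 UMIs in 75 WT T cells and 801 UMIs in 211 CD27_KO T cells. That is 17.1 CPM (95% interval 15.1 to 19.2) in WT and 40.5 (37.7 to 43.4) in CD27_KO, a log2 ratio of 1.25 (1.05 to 1.45), or 2.37-fold higher in CD27_KO. All intervals cover counting error only. Rln3 had 363 UMIs in 272 WT cells and 46 in 40 CD27_KO cells. Its level was 22.9 CPM in WT and 2.33 in CD27_KO, 9.87-fold lower (log2 -3.30, -3.78 to -2.86). Nrn1 had 333 UMIs in 227 WT cells and 54 in 40 CD27_KO cells, or 21.0 and 2.73 CPM, 7.71-fold lower (log2 -2.95, -3.39 to -2.53). Penk had 154 UMIs in 55 WT cells and 46 in 18 CD27_KO cells, or 9.73 and 2.33 CPM, 4.19-fold lower (log2 -2.07, -2.57 to -1.58). One gene was thus higher and 3 were lower in the CD27_KO library, each apart by more than its counting interval. Of the 9754 genes with at least 100 UMIs over both libraries, 7.02% were at least 1.5-fold higher in CD27_KO, 2.86% at least 1.5-fold lower and 0.297% at least 4-fold lower. The genes had been chosen with these ratios known, so their place in that list supports nothing.

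The 4 genes lay in different T cell states, as the plot of levels by cluster shows. Calca was centred on Th2-like cluster 9, with a lower level in cluster 10 and in Treg-like cluster 4. Rln3 stood highest in Treg-like cluster 4, which in WT also held most Penk UMIs. The WT level of Penk was 42.1 CPM there and 49.8 in follicular-helper-like cluster 5. In CD27_KO most Penk UMIs lay in cluster 10. Nrn1 was spread over Treg-like and follicular-helper-like clusters and cluster 2.

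**Figure D1:**
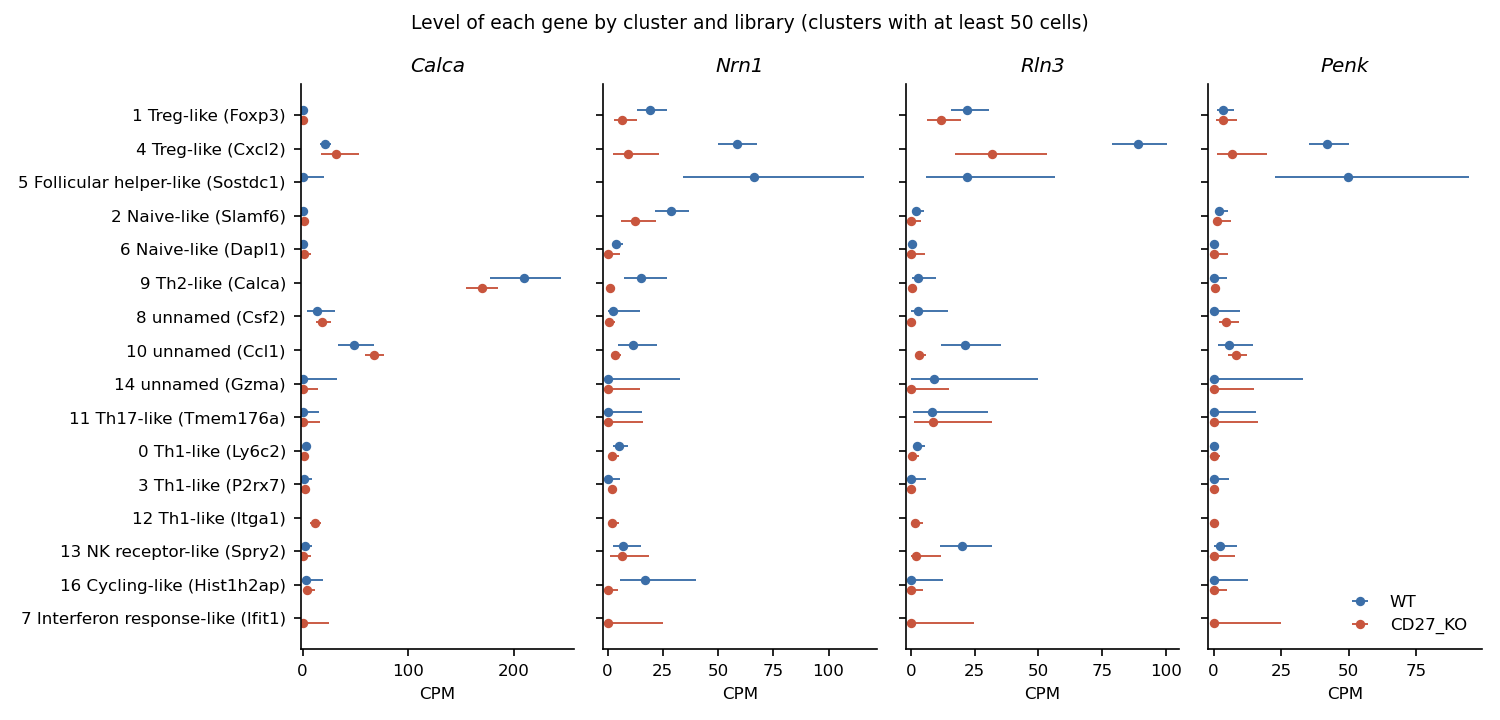
Level of each gene (CPM, x axis, one scale per gene) in each T cell cluster with at least 50 cells (y axis), in WT (blue) and CD27_KO (red), with exact 95% Poisson intervals that cover counting error only. Calca stood highest in Th2-like cluster 9, at 209 in WT and 170 in CD27_KO, while Rln3 stood highest in Treg-like cluster 4, at 89.1 in WT.

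Calca was concentrated in Th2-like cells of both libraries at a similar level. Cluster 9 (leading genes Calca, Csf2, Tnfsf11 and Rnf128) held 154 Calca UMIs in WT and 507 in CD27_KO, which is 57.0% and 63.3% of all Calca UMIs in T cells, while it made up 4.72% and 16.5% of the T cells. Within it Calca was seen in 28 of 293 WT cells (9.56%, 6.44 to 13.5) and 119 of 1121 CD27_KO cells (10.6%, 8.87 to 12.6). Its level there was 209 CPM in WT (178 to 245) and 170 in CD27_KO (155 to 185), a log2 ratio of -0.30 (-0.57 to -0.03). Its level within the cluster was thus no higher in the CD27_KO library, which had more of these cells. With every cluster given the same share in both libraries, Calca came to 29.4 CPM in each, a log2 ratio of 0.0023. The Th2-like cluster was drawn from genes that vary with Calca, and the share moved with the clustering: with each library clustered alone, a smaller Th2-like class held 21.0% of the CD27_KO Calca UMIs. That clustering also had a CD27_KO cluster of 1124 cells led by Calca and Atf3, with 10 enriched Th2 markers, which the naming rule left unnamed because innate type 2 markers were enriched too.

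Outside that cluster, Calca was next highest in cluster 10, at 48.3 CPM in WT (34 UMIs) and 67.8 in CD27_KO (212 UMIs), 26.5% of the CD27_KO total. In unnamed cluster 8, led by Csf2, Sytl3 and Bhlhe40, it stood at 13.2 and 18.7. Treg-like cluster 4 held 64 Calca UMIs in 23 WT cells, 20.9 CPM, and 14 in 3 CD27_KO cells, 31.8 CPM (log2 0.61, -0.34 to 1.46). Treg-like cluster 1 held 1 UMI in WT and none in CD27_KO. In CD27_KO, Th1-like cluster 12 (Itga1) added 22 UMIs in 9 cells. Naive-like cluster 6 (Dapl1, Ccr7) gave a background for free RNA, with 1 Calca UMI in 1305 WT cells and 1 in 314 CD27_KO cells at median depths of 1861 and 2081.

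Rln3 in T cells lay mostly in the Treg-like cells of both libraries. Cluster 4 held 273 of its 363 WT UMIs (75.2%) in 197 of 960 cells (20.5%, 18.0 to 23.2), while it made up 15.5% of the T cells. Its level there was 89.1 CPM in WT (78.8 to 100.3). In CD27_KO the same cluster held 14 UMIs in 13 of 139 cells (9.35%, 5.07 to 15.5), or 31.8 CPM (17.4 to 53.3). The log2 ratio within the cluster was -1.49 (-2.38 to -0.72), against -3.30 over all T cells. In Treg-like cluster 1 Rln3 stood at 22.2 CPM in WT (38 UMIs) and 11.8 in CD27_KO (14 UMIs), a log2 ratio of -0.92 with an interval from -1.92 to -0.00058. Both Treg-like clusters thus had less Rln3 in CD27_KO, cluster 1 with an interval that ended next to 0. With each library clustered alone, Treg-like cells held 44.1% of the WT and 84.1% of the CD27_KO Rln3 UMIs, against 85.7% and 60.9% for the 2 clusters together here. A WT cluster of 501 cells in it, with Foxp3, Cxcl2 and Areg among its leading genes and 8 enriched Treg markers, was left unnamed because innate type 2 markers were enriched as well, and is not counted as Treg-like. Smaller amounts were seen in WT in cluster 10, at 21.3 CPM, and in NK-receptor-like cluster 13 (Spry2, Klra1), at 19.9. Their CD27_KO levels were 3.20 and 2.16. Naive-like cluster 6 held 1 Rln3 UMI in 1305 WT cells and none in 314 CD27_KO cells, which by the limit of 3 counts allows up to 0.955% of cells with a UMI at that depth. Th1-like cluster 3 held none in 380 WT and 1714 CD27_KO cells.

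Penk lay in fewer cells than Rln3, and most of it in WT was also in cluster 4. That cluster held 129 of the 154 WT UMIs (83.8%) in 39 of 960 cells (4.06%, 2.90 to 5.51), at 42.1 CPM. Its CD27_KO cells held 3 Penk UMIs in 2 of 139 cells, at 6.81 CPM (log2 -2.63, -4.92 to -1.05). Follicular-helper-like cluster 5 (Sostdc1, Il21) held a further 9 UMIs in 5 of 72 WT cells, 49.8 CPM (22.8 to 94.6). It had only 6 CD27_KO cells, 1 of them with 3 UMIs. In CD27_KO most Penk lay elsewhere in this clustering. Cluster 10 held 26 of 46 UMIs (56.5%) in 7 cells, and cluster 8 held 8 UMIs in 4 cells, where 195 WT cells had none. This placement moved with the clustering. Treg-like cells held 15.2% of the CD27_KO Penk UMIs here, 34.8% at resolution 0.5 and 69.6% with each library clustered alone. Cluster 10 had 5.69 CPM in WT, from 4 UMIs, and 8.31 in CD27_KO, where the 2 highest cells had 16801 and 11144 UMIs in all. Its share of cells with Penk went the other way, at 4.35% (1.20 to 10.8) in WT and 1.62% (0.654 to 3.31) in CD27_KO, and after thinning to 1300 UMIs 2 of 92 and 1 of 432 cells were left, so no direction is read there. Naive-like cluster 6 held none in 1305 WT cells, which by the same limit allows up to 0.230% of cells with a UMI.

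Nrn1 was the least confined of the 3 genes that were lower in CD27_KO. Cluster 4 held 179 of 333 WT UMIs (53.8%) in 114 of 960 cells (11.9%, 9.90 to 14.1), at 58.4 CPM. Cluster 5 stood at 66.4 (12 UMIs in 6 of 72 WT cells), and cluster 2 (Slamf6, Cd9, S1pr1) at 28.6 (56 UMIs in 41 of 884 cells). Cluster 2 met the rule for naive-like, but at resolutions 0.5 and 2 the clusters with these leading genes stayed unnamed because both follicular helper and naive markers were enriched, and it held Ccl5, an effector gene, at 1353 CPM in WT. The intervals of clusters 4 and 5, 50.2 to 67.6 and 34.3 to 116, overlap. In CD27_KO, cluster 4 held 4 Nrn1 UMIs in 4 of 139 cells, 9.08 CPM (log2 -2.69, -4.58 to -1.30). Cluster 2 held 11 UMIs at 12.3 CPM (log2 -1.21, -2.29 to -0.26), and Treg-like cluster 1 had 33 and 8 UMIs, 19.3 and 6.72 CPM (log2 -1.52, -2.85 to -0.38). In Th2-like cluster 9, WT cells held 11 UMIs (15.0 CPM) and CD27_KO cells 3 (1.004 CPM), a log2 ratio of -3.90 (-6.38 to -1.98). Genes of other T cell states were also lower in that cluster: Ikzf2 stood at 62.6 and 13.4 CPM (log2 -2.22), Ccl5 at 410.7 and 90.04 (log2 -2.19) and Ly6c2 at 42.2 and 8.03 (log2 -2.39), and the part of this in the Nrn1 value was not tested. Naive-like cluster 6 stood at 3.82 in WT, with 6 of 1305 cells positive.

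In cluster 4, Rln3, Penk and Nrn1 were thus each at least 1.5-fold lower in CD27_KO, as were 12.9% of the 8557 genes with at least 20 UMIs in it. Calca was 1.52-fold higher there, as were 14.0% in that direction, with an interval across 0. In cluster 1, where Rln3 and Nrn1 were lower, 6.31% of 8295 genes were at least 1.5-fold lower, in cluster 2 6.56% and in cluster 9 6.79%. In cluster 10, where Rln3 (15 and 10 UMIs) was also lower, 6.94% of 8905 genes were. Treg genes were lower there too, Ikzf2 at 537 and 199 CPM (log2 -1.43), Foxp3 at 65.4 and 36.1 and Tnfrsf9 at 46.9 and 14.7, and their part in the Rln3 value was not tested. These clusters were picked after the values were seen, and the CD27_KO sides rest on 3 to 14 UMIs. Some other transcripts of cluster 4 fell as well. Atf3 stood at 160 CPM in WT and 63.6 in CD27_KO (log2 -1.33, -1.93 to -0.78), and Ly6c2 at 68.2 and 29.5 (log2 -1.21). Bcl6, with 23 and 1 UMIs, had a log2 ratio of -1.73 with an interval across 0 (-7.09 to 0.90). Others moved less or the other way. Foxp3 stood at 188 CPM in WT and 286 in CD27_KO (log2 0.61), Ikzf2 at 1152 and 1487, and Ctla4, an inhibitory receptor of Tregs, at 1068 and 1523. Il1rl1 was at 772 and 742, Areg, a growth factor for epithelial repair, at 1870 and 1580, and the cytokine Il10 at 122 and 79.4 (log2 -0.62, -1.16 to -0.12). The part of cell makeup within the cluster in these differences was not tested.

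**Figure D2:**
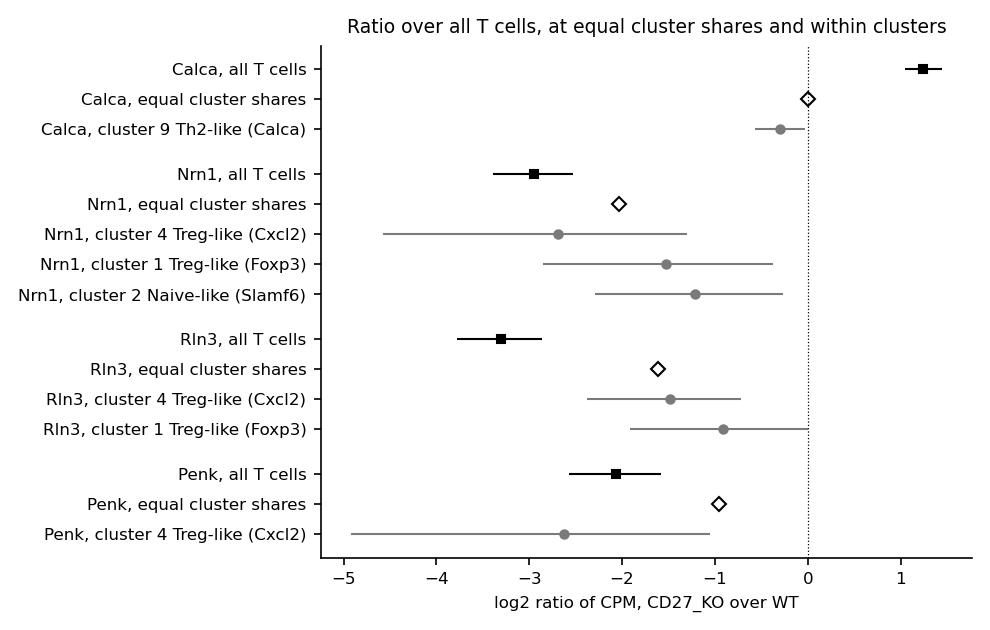
Log2 ratio of CPM, CD27_KO over WT (x axis), over all T cells (squares), with every cluster given the same share in both libraries (diamonds, no interval) and within the clusters named on the y axis (circles). Bars are exact 95% intervals of counting error, and Calca is at 1.25 over all T cells and at 0.0023 with equal shares.

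With equal cluster shares the ratios of all 4 genes came closer to 0. Nrn1 was 4.09-fold lower in CD27_KO (log2 -2.03), Rln3 3.05-fold (log2 -1.61) and Penk 1.94-fold (log2 -0.96). The plot of log2 ratios sets these beside the values within clusters.

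By mean UMIs per positive cell the genes fell into 2 pairs. In cells with Calca the mean was 3.60 UMIs in WT and 3.80 in CD27_KO, and in cells with Penk 2.80 and 2.56. Nrn1 had 1.47 and 1.35, and Rln3 1.33 and 1.15. A single UMI was all that 42.7% of the WT cells with Calca and 50.9% of those with Penk held, against 73.6% for Nrn1 and 76.1% for Rln3. In CD27_KO these shares were 37.9%, 38.9%, 80% and 85%. Scaled to the depth of the positive cells, the pairs were less apart. Penk stood at 599 CPM of those cells in WT and 360 in CD27_KO, and Calca at 830 and 884. Nrn1 stood at 364 and 298, and Rln3 at 306 and 233.

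**Figure D3:**
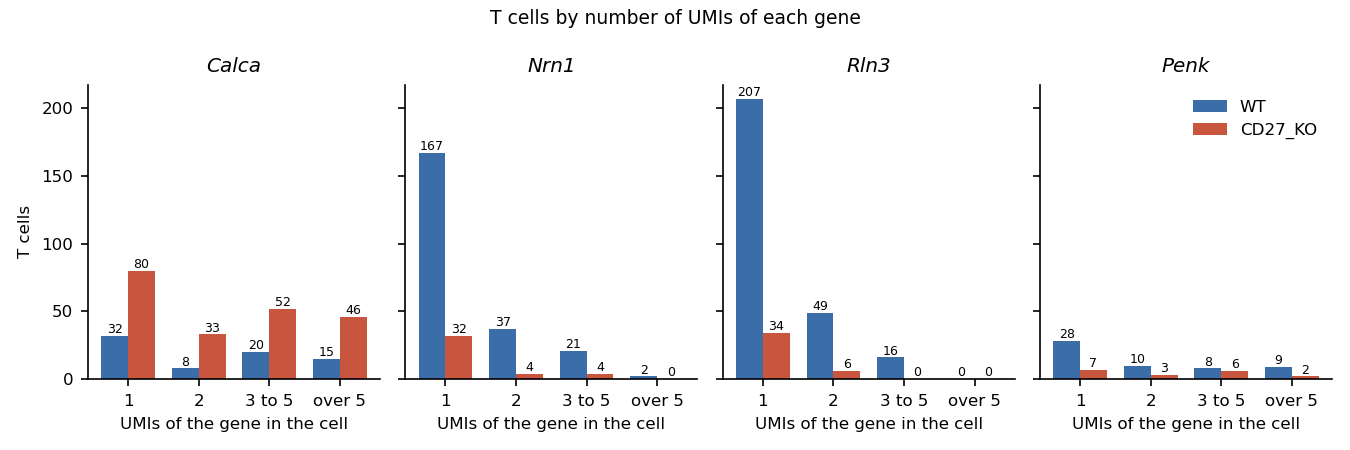
Number of T cells (y axis) that held 1, 2, 3 to 5 or over 5 UMIs of each gene (x axis), in WT (blue) and CD27_KO (red). Calca had over 5 UMIs in 15 WT and 46 CD27_KO cells, and Rln3 in none.

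The cells with most Calca were Th2-like. Of the cells with over 5 Calca UMIs, 12 of 15 in WT and 32 of 46 in CD27_KO lay in cluster 9, and 1 and 11 in cluster 10. The highest cell was in CD27_KO and held 42 Calca UMIs of 2428 in all, 1.73% of its transcripts. The next held 18, and the highest WT cell 20 of 4377. All 9 WT cells with over 5 Penk UMIs lay in cluster 4, with 15 UMIs in the highest. In CD27_KO the 2 such cells lay in cluster 10 and had 16801 and 11144 UMIs in all, and the 5 highest cells held 52.2% of all Penk UMIs. The highest Rln3 cells held 5 UMIs in WT, all 3 of them in cluster 4, and 2 in CD27_KO.

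Positive cells were deeper than the rest, which raises the chance of seeing a rare transcript. Median depth was 3334 UMIs in WT and 3171 in CD27_KO cells with Calca, 3062 and 3507.5 with Nrn1, 3374 and 3877 with Rln3, and 3979 and 5207.5 with Penk. Cells without the gene had medians of 1911 to 1925 in WT and 2174 to 2198.5 in CD27_KO. After each cell was thinned to 1300 UMIs, which left out 536 WT and 54 CD27_KO cells below that depth, Calca was seen in 0.900% of WT cells (0.671 to 1.18) and 2.24% of CD27_KO cells (1.90 to 2.62), unthinned 1.21% and 3.11%. Nrn1 was seen in 1.99% and 0.193% (unthinned 3.66% and 0.589%), Rln3 in 2.28% and 0.327% (4.39% and 0.589%) and Penk in 0.547% and 0.0743% (0.887% and 0.265%). Each pair of thinned shares kept its direction, with intervals that did not overlap.

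The other transcripts of the positive cells followed these clusters. They were compared at 1300 UMIs with negative cells of the same library, both overall and weighted to the same clusters. The T cell receptor component Cd3e had a UMI in 58.1% of the WT cells with Calca and 61.6% of those in CD27_KO, against 60.1% and 61.7% of cells without. It was seen in 58.8%, 62.0% and 63.0% of the WT cells with Rln3, Nrn1 and Penk. Markers of neurons and glia, which make these peptides in the nervous system, summed to 2.72 CPM in WT and 1.62 in CD27_KO T cells over 8 genes, with 2 and 4 at 0, Sox10 and Uchl1 among them in both libraries. Markers of mast cells and basophils summed to 1.96 and 2.02 over 6 genes. The 8 markers of innate type 2 cells, several of which Th2 cells and Tregs share, summed to 1456 and 851 CPM, with the lowest, the receptor Nmur1, at 0.316 and 0.253. The part of such cells in the results was not tested.

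Cells with Calca carried Th2 genes in CD27_KO and were more mixed in WT, where 28 of 75 (37.3%) lay in the Th2-like cluster and 24 (32%) in Treg-like clusters. In CD27_KO these were 119 (56.4%) and 3 (1.42%) of 211. In CD27_KO, Il1rl1 was seen in 59.2% of them (52.3 to 65.9), the Th2 transcription factor Gata3 in 53.1% and Il4 in 16.6%, against 18.8%, 28.8% and 5.67% of all cells without Calca. Negative cells of the same clusters came close to the positive ones, at 54.8%, 50.1% and 13.2%. Furin, a protease that cuts precursors at basic residues, was seen in 49.8% (42.8 to 56.7) against 31.8% in negative cells of the same clusters, and the stress-induced factor Atf3 in 22.7% (17.3 to 29.0) against 12.3%. WT cells with Calca had Il1rl1 in 55.4%, Gata3 in 51.4% and Ikzf2 in 29.7%, with 47.6%, 40.4% and 29.8% in negative cells of the same clusters. They had Furin in 45.9% (34.3 to 57.9) against 28.9%, and Atf3 in 36.5% (25.6 to 48.5) against 12.3%.

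Furin and Atf3 stood out inside single clusters too. In cluster 9 of CD27_KO, Furin was seen in 72 of 119 cells with Calca (60.5%, 51.1 to 69.3) and 36.7% of 996 without (33.7 to 39.8). In cluster 9 of WT it was seen in 23 of 28 (82.1%, 63.1 to 93.9) and 51.2% of 256 (44.9 to 57.4). Atf3 was seen there in 30.3% and 14.4% in CD27_KO, and in 53.6% and 17.2% in WT. In Treg-like cluster 4 of WT, Furin was seen in 7 of 22 cells with Calca (31.8%, 13.9 to 54.9) and 9.44% of 837 without. Of the 23 cells, 22 reached 1300 UMIs, and they had the Treg genes of cluster 4: Ikzf2, a Treg transcription factor, was seen in 68.2% of them and 72.6% of the others. Il4 was seen in 16.8% and 17.8% in cluster 9 of CD27_KO, and in 17.9% and 8.98% in WT, with overlapping intervals in both. Of the Calca receptor partners, Ramp3 was seen in 26.1% (18.4 to 34.9) and 13.5% (11.4 to 15.7) in cluster 9 of CD27_KO, while in WT it was seen in 14.3% and 16.0%. Ramp1 was seen in 8.40% and 11.8% in cluster 9 of CD27_KO, and in 7.14% and 19.5% in WT, with overlapping intervals in both. In cluster 4 of WT, Ramp1 was seen in 59.1% (36.4 to 79.3) and 34.4% (31.2 to 37.7). In cluster 10 of CD27_KO, Furin was seen in 50% of 50 cells with Calca (35.5 to 64.5) and 34.6% of 382 without (29.8 to 39.6), and Atf3 in 16% and 15.2%. Ramp3 was seen in 6% and 9.95% of these cells, and Ramp1 in 8% and 11.0%.

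WT cells with Rln3 or Penk carried an effector Treg profile, and so did part of those with Nrn1. Of the WT cells with Rln3, 63.1% had Ikzf2, 60.4% Ctla4, 52.2% Areg, 52.2% Il1rl1, 46.3% the receptor Klrg1 and 42.7% the IL-2 receptor chain Il2ra. Foxp3, a low transcript at this depth, was seen in 13.7%, against 4.27% of all cells without Rln3 and 16.9% of negative cells in the same clusters. Il1rl1 and Areg were seen in 43.3% and 44.6% of the same-cluster negatives, below the intervals of the cells with Rln3 (45.8 to 58.4 for both). Inside cluster 4 of WT the intervals overlapped. Il1rl1 was there in 63.6% (56.2 to 70.5) with Rln3 and 54.2% (50.4 to 58.0) without. Areg was in 64.1% (56.7 to 71.1) and 57.5% (53.7 to 61.2). Cells with Penk had Ctla4 in 68.5%, Ikzf2 in 63.0%, Areg in 50% and Foxp3 in 25.9% (15.0 to 39.7, against 15.0% in same-cluster negatives). Cells with Nrn1 had Ikzf2 in 50.9%, Ctla4 in 50% and Ramp1, the CGRP receptor partner, in 31.0% (24.9 to 37.7) against 21.0%. In cluster 4 of WT, the precursor protease Pcsk1 was seen in 15.1% of 106 cells with Nrn1 (8.88 to 23.4) and 6.51% of 753 without (4.85 to 8.51). The genes named for these cells were picked after their values were seen.

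**Figure D4:**
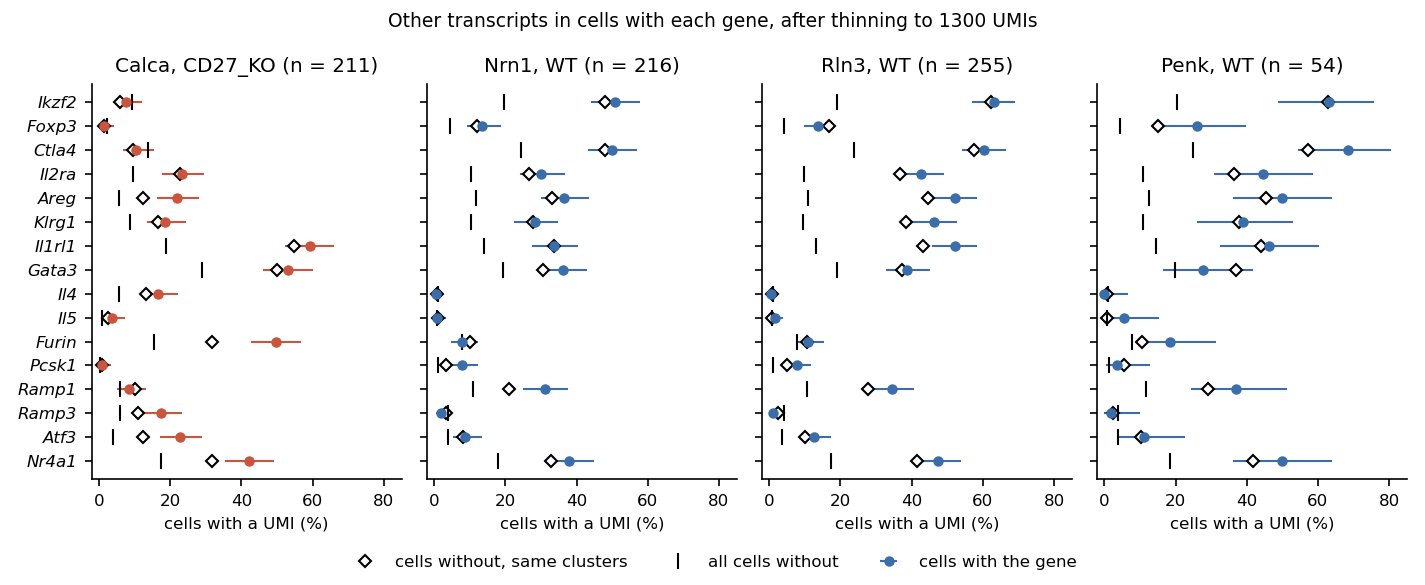
Share of cells with a UMI of each gene on the y axis (x axis, percent) after thinning to 1300 UMIs, in cells with the named gene (circles, exact 95% intervals), in cells without it weighted to the same clusters (diamonds) and in all cells without it (bars). Calca is shown for CD27_KO and the others for WT; for Calca, Furin is at 49.8% in positive cells and 31.8% in negative cells of the same clusters.

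The 3 genes of the Treg-like cells were at times in the same cell. In WT, Nrn1 and Rln3 were seen together in 39 cells, where the product of their shares within each cluster gives 26.7. Rln3 and Penk were seen together in 18 cells (product 9.01), which is 32.7% of the cells with Penk and 6.62% of those with Rln3. Nrn1 and Penk were together in 10 (product 5.64) and Calca and Rln3 in 9 (product 6.30). Calca and Nrn1 were together in 3 (product 4.48) and Calca and Penk in 1 (product 1.38), both below the product. Depth differs between cells of a cluster, and its part in these counts was not tested. In CD27_KO the pairs with Nrn1, Rln3 or Penk were seen in 0 to 3 cells. The receptor segment seen most often in WT cells with Rln3 was Trav16n, in 8.09% (5.14 to 12.0), against 6.31% in negative cells of the same clusters. Only 133 of these 272 cells had a UMI of any such segment.

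Genes whose level followed each of the 4 over clusters were taken from 29 points, 1 per cluster and library with at least 50 cells. Points of a library share its depth, and the values are a description. The gene most like Calca was Pparg (Pearson r 0.94), a nuclear receptor central to fat-resident T cells, followed by Dhx40, Hdc, which makes histamine, Tmem273, Il5, a Th2 cytokine, and Slc7a8 (r 0.90). Rln3 was most like Il10 (0.88), then Tnfrsf9 (0.87), Frmd5, Wls, Ctsh and Bicd1 (0.82). Penk was most like Tox2 (0.88), then Phactr2, Il10, Pdcd1, Tnfrsf9 and Nrn1 (0.77). Nrn1 was most like Tox (0.81), followed by 4930417O13Rik, Penk, the inhibitory receptor Pdcd1, Cd200 and Rgs16 (0.74). Il10 and Tnfrsf9, a costimulatory receptor of activated Tregs, were near both Rln3 and Penk.

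A second ranking set cells with each gene against negative cells of the same cluster and library, over genes seen in at least 20% of the positive cells. For Calca (286 cells) it was led by Atf3, at 355 against 185 CPM, and Ramp3, at 154 against 84.2, then Asb2, Irs2, Arhgef6, Furin (953 against 588), Man2a2 and Ell2, all 1.59- to 1.87-fold higher. For Penk (73 cells) it was led by Ptprs (23 UMIs, 59.7 against 18.7 CPM), the chemokine receptor Ccr8 (21 UMIs), Sgpl1 and Tnfrsf9 (57 UMIs, 148 against 58.6), then Nhp2, Nip7 and Dctpp1. For Nrn1 (267 cells) Ramp1 came first, at 298 against 193, then the chemokine Cxcl2, Fam162a, Ccdc50, Tbc1d4, Elovl5, Atxn10 and Gm2a. For Rln3 (312 cells) Pcyt1a came first, at 168 against 115, then Psmd13, Acsl4, Soat1, Tcp1, Mt1, Morf4l2 and Mob3a, none of them over 1.42-fold.

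Enzymes that turn precursors into peptides were present in the T cells in part. Of 19 listed genes, 9 had at least 100 UMIs, 2 of them at least 1.5-fold higher and 4 at least 1.5-fold lower in CD27_KO, where 7.02% and 2.86% of all 9754 genes were, with a median log2 ratio of -0.42 against 0.17 over all of them. Furin stood at 146 CPM in WT and 347 in CD27_KO (log2 1.25). Its highest cluster was the Th2-like cluster 9 of both libraries, at 1280 and 904. Cpd, a carboxypeptidase that trims basic residues, stood at 9.35 and 20.2 (log2 1.11). Pcsk1, a convertase of secretory granules, had 193 and 77 UMIs, 12.2 and 3.89 CPM (log2 -1.65), and its highest cluster was Treg-like cluster 4 in both, at 50.6 and 29.5. Cpm stood at 33.6 and 19.8, Pam, which adds the end amide that CGRP carries, at 8.72 and 5.16, and Ctsl at 7.84 and 4.40. Pcsk7 and Pcsk4 differed less (log2 0.17 and -0.42). Pcsk2, Pcsk1n, Scg2, Chga and Chgb, parts of the regulated secretory pathway of neurons and endocrine cells, had no UMI in either library.

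Of 21 listed receptors and receptor partners for these products, 6 had at least 100 UMIs, 1 of them at least 1.5-fold higher and 1 at least 1.5-fold lower in CD27_KO, where 7.02% and 2.86% of all 9754 genes were. No UMI was seen for 10. Calcrl stood at 26.5 CPM in WT and 29.1 in CD27_KO (log2 0.13). Ramp1 stood at 133 and 59.2 (log2 -1.17), highest in WT in Treg-like cluster 4 at 362. Ramp3, which turns Calcrl towards adrenomedullin, stood at 33.9 and 58.8 (log2 0.80), highest in Th2-like cluster 9 at 137 and 144. Rxfp1, Rxfp2, Rxfp3 and Rxfp4, the relaxin family receptors, had no UMI, nor had the opioid receptors Oprd1, Oprk1 and Oprl1. Oprm1, the mu receptor, had 21 and 5 UMIs. The remaining 3 with at least 100 UMIs, Crcp, Ogfr and Insr, had log2 ratios of -0.02 to 0.14. Gria1, Gria2 and Gria4, glutamate receptor subunits, had no UMI, Gria3 had 4 and 1, and Calcr, Ramp2 and Ackr3 had at most 3 in a library.

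Of 33 other peptide genes of the same families or of the nervous system, 19 had no UMI in either library, among them Calcb, Iapp, Rln1, Pdyn, Pnoc, Vip, Tac1, Sst and Gal. Only 3 reached 100 UMIs: Nmb (33.7 and 36.1 CPM), Insl6 (8.53 and 9.45) and Pomc (3.48 and 2.88), and none was 1.5-fold apart. Among the listed receptors of other neuropeptides, Vipr1, which binds vasoactive intestinal peptide, stood at 8.72 and 10.5 CPM.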

How the data were processed

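Per the file headers, the authors made the deposited matrices with Cell Ranger 6.1.1, and per the labels on mm10. The values are raw UMI counts per gene and called cell. The labels name different kit versions, and no sources used here give the aligner settings. Groups come from the sample titles.

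From the deposited counts, cells below 500 genes or above 10% mitochondrial UMIs were dropped. Log values per 10000 UMIs of 2000 variable genes (leaving out receptor segments, genes of ribosomes, mitochondria and haemoglobin, sex-linked genes, Cd27 and the 4 genes) were reduced to 30 principal components, and both libraries were clustered together (20 neighbours, Leiden resolution 1). No doublet caller was run. A cluster was named where at least 3 markers of a type were 1.5-fold enriched and seen in 5% of its cells, by the type whose markers had the highest median, and left unnamed where another lymphocyte type reached 0.5 of it. Python 3.11.15, scanpy 1.11.5, numpy 2.4.6, scipy 1.17.1, scikit-learn 1.9.0, igraph 0.11.9, pandas 2.3.3, matplotlib 3.10.9 and BLAST 2.17.0 were used.

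Ratios, levels and shares carry exact conditional binomial, Poisson and Clopper-Pearson intervals at 95%, for counting error only. A share at 0 is limited by 3 counts. With 1 library per group no p-value was computed. The ratio and likeness steps were tested on simulated data.

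The genes, lists and markers were chosen with earlier results of these data known. Named by rule were list genes with at least 100 UMIs, receptors of the 4 genes, the 6 genes most correlated over clusters (at least 200 UMIs) and the 8 furthest apart in positive cells (pseudocount 10 CPM). Others were chosen after their values were seen. Some genes that the rule names are not reported here. Alternatives are given in the closing section. Leaving out cells over 8000 UMIs, shared barcodes or cluster 10 was chosen after seeing the data.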

Additional observations from a re-analysis of the deposited data

Results flagged for a closer look

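Some UMIs of the 4 genes lay in clusters that were left out because they are not T cells, and these values enter no comparison above. Plasmacytoid-dendritic-like cluster 15 (Siglech, Tcf4) held 20 Calca UMIs in 4 of 55 WT cells and 7 Rln3 UMIs in 5 of them, and none of either in 27 CD27_KO cells. B-cell-like cluster 17 (Cd79a, with the myeloid gene Lyz2) held 10 Rln3 UMIs in 9 of 52 WT cells and 6 Nrn1 UMIs in 4 of them, and none of either in 27 CD27_KO cells. Its WT Rln3 level was 36.1 CPM at a median depth of 4355 UMIs. Treg-like clusters 1 and 4 stood at 22.2 and 89.1 in WT. Stromal-like cluster 18 (Dcn, Col3a1) held 6 Penk UMIs in 1 of 29 WT cells and 13 Penk UMIs in 1 of 11 CD27_KO cells. Each was above the limit of 3 counts.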

How the results depend on the processing

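All comparisons rest on 1 library per genotype, and depth limits the values within clusters, where the CD27_KO side often holds under 15 UMIs. No paired analysis was possible because each group is 1 library. Of 111 alternatives to 32 results, 82 stayed within the main counting interval, or within 1.5 times a main count, and 29 moved beyond it. Direction was checked for ratios only, and 0 of them changed it. Calca at 0.0023 with equal cluster shares was counted as unchanged there. Shares had no such check. The Treg-like shares of Nrn1, Rln3 and Penk UMIs were higher in WT in the main clustering. With each library clustered alone they were higher in CD27_KO. Equal cluster shares gave log2 ratios over all T cells of 0.0023 for Calca, -2.03 for Nrn1, -1.61 for Rln3 and -0.96 for Penk; over all alternatives these 4 ranged from 0.0023 to 1.46, -3.31 to -2.03, -3.56 to -1.61 and -3.05 to -0.96. Calca came to 0.89 when cells under 1000 genes or over 5% mitochondrial UMIs were dropped, and to 1.46 without the 5 highest cells of each library. Penk came to -2.85 without cells over 8000 UMIs and to -3.05 without cluster 10. Nrn1's share of cells came to -2.52 at 1000 UMIs, and Penk at 2 or more UMIs gave no value.

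The share of UMIs in the named cell type depended on the clustering. Clustering each library alone gave 21.0% of CD27_KO Calca UMIs in Th2-like cells (63.3% in the main clustering), and in Treg-like cells 35.5% (63.7%) of Nrn1, 44.1% (85.7%) of Rln3 and 53.9% (87.7%) of Penk in WT, and 46.4% (22.2%), 84.1% (60.9%) and 69.6% (15.2%) in CD27_KO. The classes then held other shares of the cells, since the naming rule left a Calca-led cluster of 1124 CD27_KO cells and a Foxp3-bearing cluster of 501 WT cells unnamed. Resolution 0.5 gave 94.1% of CD27_KO Calca UMIs in Th2-like cells and 34.8% of CD27_KO Penk UMIs in Treg-like cells, where Penk's log2 ratio came to -1.63 (main -2.72). Allowing the 4 genes among the variable genes gave 46.7% for WT Calca (main 57.0%) and 89.5% for WT Rln3, and seed 1 gave 50% for WT Calca. Without thinning, Il1rl1 was seen in 82.7% of WT cells with Calca (main 55.4%), and Ikzf2 in 67.8% with Nrn1 (50.9%), 87.5% with Rln3 (63.1%) and 85.5% with Penk (63.0%). With a minimum of 20 UMIs, 2 receptors of the 4 genes were lower in place of 1, 1 other peptide higher in place of 0, and 2 other receptors higher in place of 0. The cause of the other moves was not tested.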
